A study of Mus musculus with 32 samples.

Results

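A set of 10 genes of lymphoid tissue organization were followed across every tumor of the study. They are the chemokine ligands Cxcl13, Ccl19 and Ccl21a, the chemokine receptors Cxcr5 and Ccr7, the lymphotoxin genes Lta, Ltb and Ltbr, and the genes for BAFF and its receptor TACI, Tnfsf13b and Tnfrsf13b. They were chosen by symbol, and all 10 were found among the 39676 genes of the count table. The question of the study was how a mesothelioma behaves in the pleural cavity, where the disease arises, compared with the subcutaneous space that is often used in its place.

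RNA from whole tumors of 32 mice was sequenced, with 8 mice in each of 4 groups. Both lines, AB1 and AE17, come from mesotheliomas of mice. AB1 IPL and AB1 SC are AB1 tumors grown from 500000 cells in the pleural space (intrapleural, IPL) or under the skin (subcutaneous, SC) of BALB/c mice. AE17 IPL and AE17 SC are AE17 tumors grown from 1000000 cells at the same sites in C57BL/6 mice. All mice were untreated females of at least 8 weeks, and the tumors were taken on day 10. Each model is 1 cell line in 1 strain with its own cell number, so line, strain and cell number cannot be told apart between models. The lungs and surrounding tissue were cut away before RNA extraction. The RNA holds tumor cells and all host cells that remained, and no cells were sorted.

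In lymphoid organs CXCL13 draws B cells into follicles through CXCR5, while CCL19 and CCL21 draw T cells and mature dendritic cells into the T zone through CCR7. Lymphocytes carry lymphotoxin, a complex of the LTA and LTB proteins, which acts on the lymphotoxin beta receptor of stromal cells, and the non-canonical NF-kB pathway below this receptor switches on the same chemokines. BAFF is a survival factor for B cells, and TACI is one of its receptors on B cells and plasma cells. In tumors and inflamed tissue the same genes are known from tertiary lymphoid structures, which are aggregates of B cells, T cells and high endothelial venules.

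Values are given as counts of reads per gene or as CPM, the counts per 1000000 reads scaled by edgeR's TMM method. Total counts per mouse ranged from 15432258 to 20649645. At that depth 3 counts, the smallest number taken as detectable, equal between 0.140 and 0.189 CPM, a limit that covers counting error only. Groups were compared by edgeR's quasi-likelihood test over all genes that passed its filter, p values were adjusted after Benjamini and Hochberg, and a gene was called at an adjusted p under 0.05. The mice are separate animals, and the p values rest on the spread between them. How many of all genes separate groups without overlap was not counted, here and in all results below. The sequencing lane followed the groups closely. All 8 AB1 IPL libraries were read in lane 3 with 2 AB1 SC libraries, while the other 6 AB1 SC libraries were read in lane 2. In AE17, the 8 SC libraries and 3 IPL libraries were read in lane 1 and the other 5 IPL libraries in lane 2. AE17 IPL replicates 5 and 8 stood apart from the other 6 mice by their B cell genes, and their values are given where they touch a result on the 10 genes. Ms4a1, the gene of the B cell surface protein CD20, had 586 and 463 counts in them and between 7 and 24 in the others.

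The sequences of Ccl21a matter for how its counts can be read. Ccl21a lies at chr4:42772860-42773993 on the minus strand (GRCm38, GENCODE M21), 16282 bases from Ccl19. The count table also holds 2 near-identical copies of it, Gm21541 and Gm13304, on the plus strand of the same chromosome. The Ccl21a transcript was identical to that of Gm21541 at 864 of 870 bases (99.3%) and to that of Gm13304 at 832 of 837 aligned bases (99.4%). Of the 821 windows of 50 bases, the length of the reads, 71.6% were found without a change in Gm21541 and 70.5% in Gm13304. The coding sequences of 399 bases differed at 2 positions from Ccl21a, T84A and C194T in both copies, with positions counted from 1 at the first coding base. Coding bases 68 to 117 of the 3 genes, which lie in 1 exon, are shown with the base that differs in capitals.
Ccl21a, chr4:42773714-42773763 (- strand): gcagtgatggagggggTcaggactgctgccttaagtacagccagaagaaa
Gm21541, chr4:41903840-41903889 (+ strand): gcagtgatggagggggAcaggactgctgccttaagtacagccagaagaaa
Gm13304, chr4:42115014-42115063 (+ strand): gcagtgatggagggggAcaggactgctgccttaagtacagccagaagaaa
A read of this stretch can tell Ccl21a from its copies by a single base, but it cannot tell the copies from each other.

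The counts showed the same. Gm21541 and Gm13304 had equal counts in 28 of 32 tumors. In AE17 tumors with at least 10 Ccl21a counts (n = 15), Gm13304 had a median of 95.1% of the Ccl21a count, with a range from 75.1% to 123%. In AB1 tumors (n = 11) its median was 70.5%, with a range from 52.2% to 100%. The 3 genes cannot be taken as separate measurements, and every value of Ccl21a below may hold reads of its copies.

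**Figure D1:**
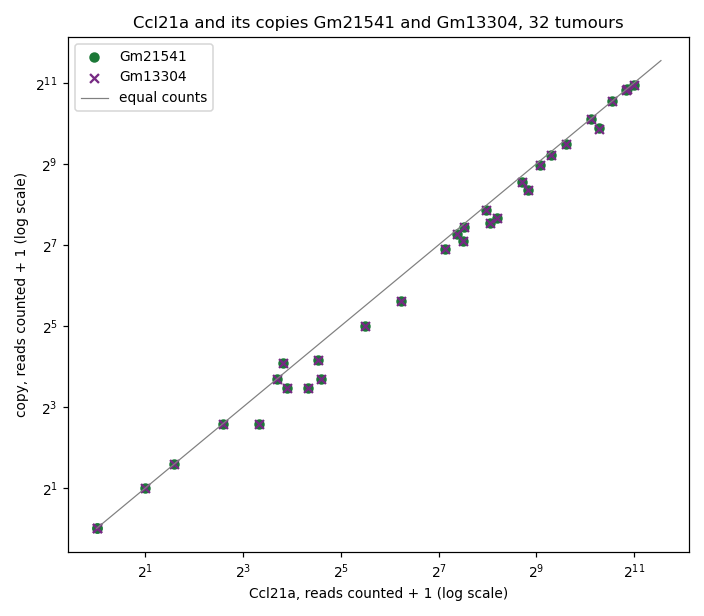
Reads counted at Ccl21a (x axis) and at its copies Gm21541 and Gm13304 (y axis) in each of 32 tumors, with 1 added to each count and both axes on a log scale. The points of both copies lie near the line of equal counts for AE17 tumors and on or below it for AB1 tumors, which are not marked apart. The points of the copies cover each other in most tumors.

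Promoters are shown for the chemokine genes Cxcl13 and Ccl21a and for Lta and Ltb, since Lta and Ltb moved together in the results below. They are RefSeq sequences of GRCm38.p6, from 250 bases before the RefSeq start of the gene to 50 bases after it. The RefSeq start can differ from that of the GENCODE coordinates given for genes elsewhere, as for Cxcl13 and Ltb. They were searched on both strands for GGG followed by CC after any 5 bases, a general NF-kB pattern, and for GGAGATTTG, the form described for RelB-containing NF-kB at the Cxcl13 gene. Matches of either pattern are in capitals.
Cxcl13, chr5:95956689-95956988 (+ strand): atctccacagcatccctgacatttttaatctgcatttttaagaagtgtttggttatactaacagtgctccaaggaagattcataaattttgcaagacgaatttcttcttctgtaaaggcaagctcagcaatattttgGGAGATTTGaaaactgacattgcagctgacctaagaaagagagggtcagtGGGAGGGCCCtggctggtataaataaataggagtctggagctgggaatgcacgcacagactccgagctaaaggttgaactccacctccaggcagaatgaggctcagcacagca
Ccl21a, chr4:42773942-42774241 (- strand): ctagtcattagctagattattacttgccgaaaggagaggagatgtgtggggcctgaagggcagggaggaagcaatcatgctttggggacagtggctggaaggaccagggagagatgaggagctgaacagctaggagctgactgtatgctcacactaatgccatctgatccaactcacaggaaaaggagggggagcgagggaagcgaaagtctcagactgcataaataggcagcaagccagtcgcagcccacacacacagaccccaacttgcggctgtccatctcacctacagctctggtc
Lta, chr17:35205302-35205601 (- strand): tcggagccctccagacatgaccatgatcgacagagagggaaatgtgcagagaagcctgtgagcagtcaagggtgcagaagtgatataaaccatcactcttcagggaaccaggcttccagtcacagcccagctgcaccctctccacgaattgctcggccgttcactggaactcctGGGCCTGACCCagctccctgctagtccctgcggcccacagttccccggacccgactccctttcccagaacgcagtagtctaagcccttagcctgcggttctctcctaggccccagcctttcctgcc
Ltb, chr17:35194257-35194556 (+ strand): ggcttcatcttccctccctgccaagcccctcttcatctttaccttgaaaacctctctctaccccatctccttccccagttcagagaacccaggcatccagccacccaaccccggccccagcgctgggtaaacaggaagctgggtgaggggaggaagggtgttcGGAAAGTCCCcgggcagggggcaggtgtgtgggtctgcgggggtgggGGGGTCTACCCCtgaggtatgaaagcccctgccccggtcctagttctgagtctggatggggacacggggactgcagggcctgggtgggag
GGAGATTTG was found in Cxcl13, from 113 to 105 bases before its RefSeq start, and in 0.253% of all 32851 promoters of this length. The general pattern was found in Cxcl13, Ccl19, Lta, Ltb, Ltbr and Tnfrsf13b. It was found in 50.8% of all promoters, so these matches do not set the 6 genes apart. The windows of Ccl21a and Tnfsf13b held neither pattern. No promoter of Cxcr5 or Ccr7 was analysed here. Lta and Ltb lie 6844 bases apart on chromosome 17 (chr17:35203165-35205351, minus strand, and chr17:35194439-35196320, plus strand), with Tnf between them.

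Levels of the 10 genes spanned a wide range in every group. Per kilobase of merged exons, Ltbr had the highest mean in AB1 IPL tumors (64.9 ± 13.3 CPM per kilobase, mean ± SD, n = 8 as in all values below) and in AB1 SC tumors (58.5 ± 4.25). Cxcl13 followed in both AB1 groups, with 28.6 ± 17.8 and 21.96 ± 9.98 CPM per kilobase. In AE17 IPL tumors Ccl21a was highest, with 85.9 ± 47.5 CPM per kilobase against 38.0 ± 2.53 for Ltbr. Ltbr was highest in AE17 SC tumors (44.3 ± 5.26), and Ccl21a followed with 22.3 ± 18.4. The lowest mean level was that of Ccl19 in AB1 IPL and AB1 SC tumors (0.398 ± 0.376 and 0.411 ± 0.362). In AE17 SC tumors it was that of Cxcr5 (0.434 ± 0.0802). In AE17 IPL tumors the means of Lta (0.769 ± 0.418) and Cxcr5 (1.07 ± 1.30) were the lowest and their ranges overlapped. The order of these means rests on replicates 5 and 8, which had 12.6 and 7.90 CPM of Cxcr5 while the other 6 had at most 1.803 CPM.

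**Figure D2:**
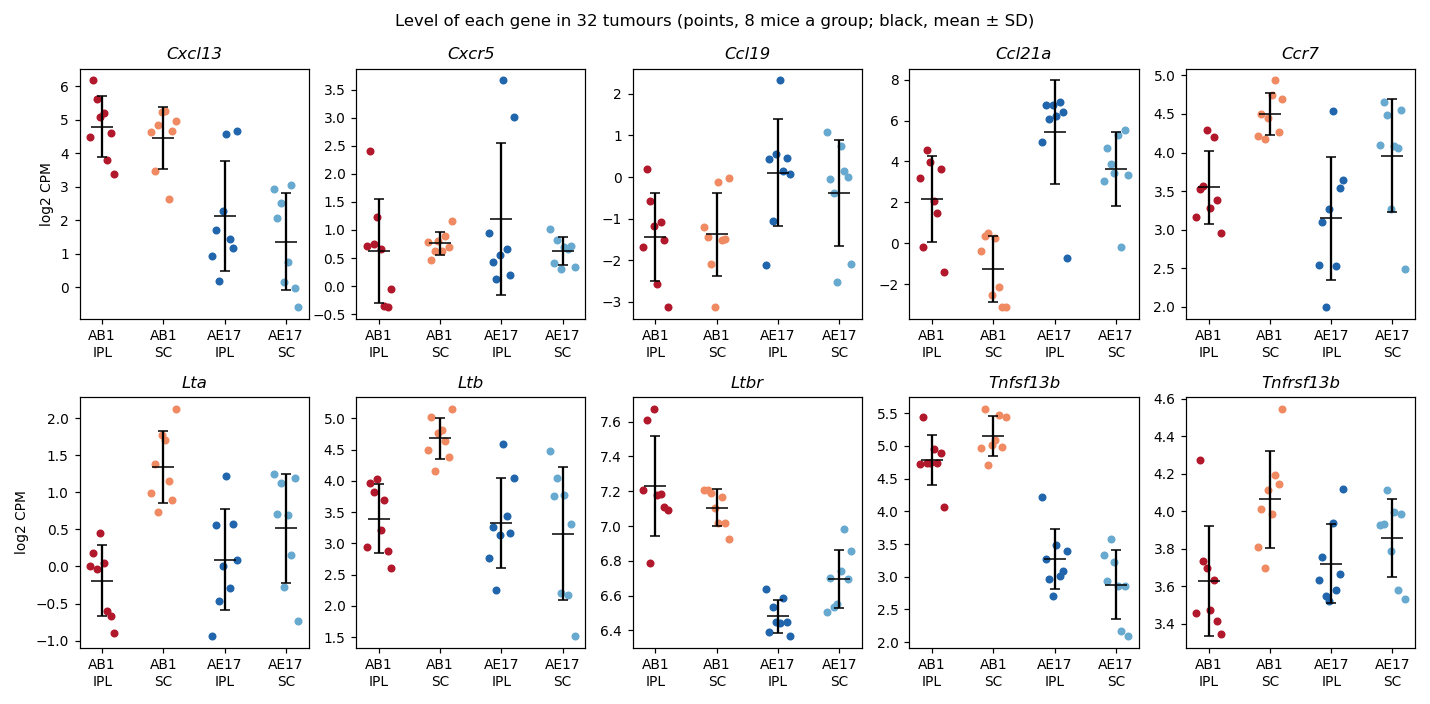
Level of each of the 10 genes in log2 CPM (prior count 2) in the 4 groups, with 1 point per mouse and the mean ± SD of 8 mice in black. Lta and Ltb lie lower in all 8 AB1 IPL tumors than in any AB1 SC tumor, and Ccl21a has 1 low mouse in AE17 IPL (0.501 CPM) and 1 in AE17 SC (0.762 CPM).

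In AB1, 5 of the 9 genes that could be tested differed between sites, while 23% of all 14645 genes tested were called. Lta, Ltb, Ccr7 and Tnfrsf13b were lower in IPL tumors (10.7% of all genes were called lower) and Ccl21a was higher (12.3% were called higher). In AB1 the counts of Ccl19 were too low for the filter. With the lane as a covariate 2 of the genes stayed called in AB1 (386 of all genes), and within lane 3 the number was 0 (169 of all genes). In AE17, 0 of 10 genes were called by edgeR, while 5.73% of all 14668 genes tested were called. In AE17, 4 of these 10 had an unadjusted p under 0.05 by edgeR, as did 3696 of the 14668 genes. DESeq2 called 1 of the 10 (Ltbr) and 1661 of all genes. Limma voom called 2 of the 10 (Ltbr and Ccr7) and 3959 of all genes.

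**Figure D3:**
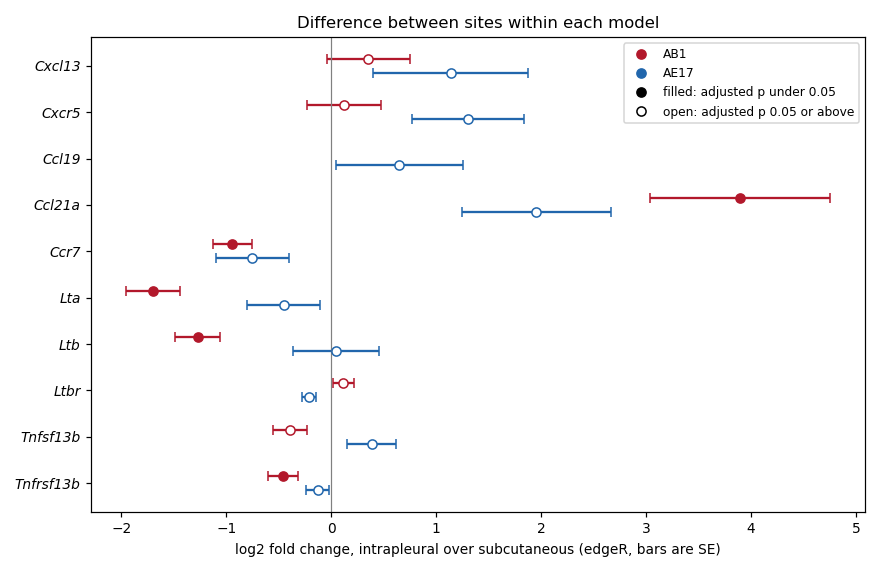
Difference between sites in each model as the log2 fold change of IPL over SC tumors from edgeR, with bars of 1 standard error and 8 mice per group. Filled points are genes with an adjusted p under 0.05, all of them in AB1 (Lta, Ltb, Ccr7 and Tnfrsf13b to the left of 0 and Ccl21a to the right), and Ccl19 has no point in AB1 because it was not tested there.

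Cxcl13, the B cell attractant, was present in every tumor. Its lowest, median and highest levels were 10.4, 29.1 and 72.9 CPM in AB1 IPL tumors and 6.07, 26.8 and 38.0 CPM in AB1 SC tumors. They were 1.04, 2.91 and 25.3 CPM in AE17 IPL tumors and 0.548, 2.85 and 8.21 CPM in AE17 SC tumors. The sites overlapped in both models. The log2 fold change of IPL over SC was 0.35 ± 0.39 (SE) in AB1 (adjusted p = 0.545, edgeR) and 1.14 ± 0.73 in AE17 (adjusted p = 0.350). In AE17 the 2 IPL tumors above every SC tumor were replicates 5 and 8, with 23.6 and 25.3 CPM, and the other 6 lay between 1.04 and 4.74 CPM. Without this pair the value was -0.51 (adjusted p = 0.624). In AB1, replicates 2 and 3 were highest, and without them the value was -0.11 (adjusted p = 0.851).

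Cxcr5, the receptor of CXCL13 on B cells and follicular helper T cells, was low in most tumors. Its lowest, median and highest counts were 11, 29 and 96 in AB1 IPL tumors and 24, 26.5 and 34 in AB1 SC tumors. They were 16, 24 and 210 in AE17 IPL tumors and 19, 24.5 and 33 in AE17 SC tumors. The high values were those of AE17 IPL replicates 5 and 8, with 210 and 142 counts, and of AB1 IPL replicate 2, with 96. The log2 fold change of IPL over SC was 0.12 ± 0.35 in AB1 (adjusted p = 0.839, edgeR) and 1.30 ± 0.53 in AE17 (adjusted p = 0.140). Without replicates 5 and 8 the AE17 value was -0.13 (adjusted p = 0.680). The AB1 value turned to -0.32 without IPL replicate 2, to -0.40 with limma voom and to -0.15 with the replicate number as a block. The annotated exons of Cxcr5 share 110 bases (3.30% of their length) with Bcl9l on the opposite strand, and whether the counting used strand is not given in the sources used here.

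Other B cell and plasma cell genes were high in the same AE17 IPL mice. Cr2, the complement receptor of B cells and follicular dendritic cells, had 379 and 158 counts in replicates 5 and 8 and at most 16 in the other 6. Fcer2a, the low affinity IgE receptor of the same cells, had 388 and 207 counts against at most 16. Jchain, which joins secreted immunoglobulins in plasma cells, had 1379 and 1560 counts against at most 45. Rag1, a recombinase of immature lymphocytes, had 26 counts in replicate 5, 0 in replicate 8 and at most 6 in the others. In AB1 IPL tumors Rag1 had 87 counts in replicate 3, 29 in replicate 5 and at most 14 in the other 6, against at most 1 in AB1 SC tumors. Markers of other host tissue were also high in AE17 IPL replicate 5. Its summed heart muscle markers reached 179 CPM, against 8.63 to 28.9 CPM in the other 7 mice, and its adipocyte markers 484 CPM, against 48.6 to 70.1 CPM. Replicate 8 lay within the range of the other mice for adipocyte markers (67.7 CPM) and was lowest for heart muscle markers. The part of such tissue in the values of the 10 genes was not tested. Fewer cells of a type and less RNA per cell cannot be told apart in RNA of whole tumors, here and in all results below.

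Ccl21a, the T zone and lymphatic chemokine, had the largest log2 fold change of the 10 in AB1 and AE17 and between the models. Its lowest, median and highest levels were 0.264, 6.45 and 23.2 CPM in AB1 IPL tumors and 0, 0.381 and 1.32 CPM in AB1 SC tumors, where 4 mice had fewer than 3 counts and 2 of these had none. In AB1, 6 IPL tumors were above every AB1 SC tumor. The level was higher in AB1 IPL tumors by 3.89 ± 0.86 on the log2 scale (adjusted p = 0.00339, edgeR), and the counts of Gm21541 and Gm13304 rose with it (3.94 ± 0.82 each, adjusted p = 0.00222). In AE17 the levels were 0.501, 80.1 and 119.96 CPM in IPL tumors and 0.762, 12.7 and 45.8 CPM in SC tumors. In AE17, 6 IPL tumors were above every SC tumor, but IPL replicate 8 had 9 counts while the other 7 had between 538 and 2047. The difference in AE17 was 1.96 ± 0.71 (adjusted p = 0.104), and without replicate 8 it was 2.14 (adjusted p = 0.0450). In AB1 the value was 3.21 with the lane as a covariate (adjusted p = 0.291) and 3.15 within lane 3 (adjusted p = 0.422, 8 against 2 mice).

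Some markers of lymphatic endothelium were higher in IPL tumors as well. The summed level of the 5 markers ran from 7.18 to 25.4 CPM in AB1 IPL tumors and from 3.31 to 6.64 CPM in AB1 SC tumors, and from 10.1 to 66.3 CPM in AE17 IPL tumors and from 11.4 to 31.8 CPM in AE17 SC tumors. Flt4, the VEGF receptor of lymphatic vessels, was called higher in IPL tumors of AB1 (1.10 ± 0.21 on the log2 scale, adjusted p = 0.00106) and of AE17 (0.96 ± 0.26, adjusted p = 0.0406), and Reln was called higher in AE17 (2.00 ± 0.48, adjusted p = 0.0263). These were 1 of 3 tested markers in AB1, where 12.3% of all genes were called higher, and 2 of 5 in AE17, where 2.60% were. With the lane as a covariate 0 of all genes were called higher in AE17, so Flt4 and Reln lost their AE17 calls. The highest sum in AB1 was that of IPL replicate 2, a mouse with only 0.754 CPM of Ccl21a. Lyve1, which macrophages carry too, made up 21.2 of its 25.4 CPM, and it had 2 counts of Prox1 and 1 of Mmrn1. AE17 IPL replicate 8, the mouse with 9 Ccl21a counts, had 1 count of Prox1, the transcription factor that specifies lymphatic endothelium, and 0 of Mmrn1, while the other 7 mice had 25 to 92 and 84 to 328. The part of lymphatic vessels in the Ccl21a difference was not tested.

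Skeletal muscle markers also moved with Ccl21a in AB1. The 4 AB1 IPL mice with the highest Ccl21a, replicates 1, 3, 4 and 7 with 8.87 to 23.2 CPM, had the highest summed muscle markers, from 1889 to 3456 CPM. The other 4 had at most 4.02 CPM of Ccl21a and from 91.4 to 1043 CPM of muscle markers, and AB1 SC tumors had from 47.8 to 305 CPM. All 4 muscle genes were called higher in AB1 IPL tumors, as were 12.3% of all genes. Replicate 3, with the highest Ccl21a, was also the mouse with 87 counts of Rag1. The part of muscle or of immature lymphocytes in the Ccl21a values was not tested.

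Ccl19, the other CCR7 ligand, was low, and in AB1 near the limit of detection. From lowest over median to highest, its counts were 0, 5.5 and 19 in AB1 IPL tumors and 0, 4.5 and 14 in AB1 SC tumors, and 2, 19 and 82 in AE17 IPL tumors and 1, 14.5 and 35 in AE17 SC tumors. In AB1 the mean log2 CPM was -1.44 in IPL and -1.38 in SC tumors, a difference of -0.06 (exact two-sided permutation test, p = 0.899). In AE17 the log2 fold change was 0.65 ± 0.60 (adjusted p = 0.535, edgeR), with the 82 counts of IPL replicate 5 as the only value above every SC tumor. The pseudogenes Ccl19-ps1 and Ccl19-ps3 match Ccl19 closely (99.1% and 100% identity over 325 and 324 aligned bases), and in AE17 Ccl19-ps3 had a median of 65.3% of the Ccl19 count, so the low counts of Ccl19 are uncertain.

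Ccr7, the receptor of both T zone ligands on naive T cells and mature dendritic cells, was lower in AB1 IPL tumors. Its lowest, median and highest levels were 7.66, 10.9 and 19.4 CPM in AB1 IPL tumors and 17.9, 22.1 and 30.6 CPM in AB1 SC tumors. All 8 IPL tumors were below the SC median, 6 of them below every SC tumor. The level fell by 0.94 ± 0.19 on the log2 scale, or 1.92-fold (adjusted p = 0.00148, edgeR). With the lane as a covariate the value was -0.77 (adjusted p = 0.170) and within lane 3 it was -0.83 (adjusted p = 0.274). In AE17 the levels were 3.86, 8.99 and 23.2 CPM in IPL tumors and 5.48, 16.9 and 24.98 CPM in SC tumors, and they overlapped. The AE17 value was -0.75 ± 0.35 (adjusted p = 0.188), and without IPL replicate 5 it was -1.06 (adjusted p = 0.0465).

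The direction of Ccl21a and that of its receptor were thus opposite in AB1. Markers of migratory dendritic cells, which carry CCR7, were called lower for 2 of 6 genes in each model, beside 10.7% of all genes in AB1 and 3.13% in AE17. These were Ccl22, a chemokine of mature dendritic cells (-1.39 ± 0.21 in AB1, adjusted p = 0.000200, and -1.65 ± 0.29 in AE17, adjusted p = 0.00761), and Il12b (-0.73 ± 0.21, adjusted p = 0.0157, and -1.07 ± 0.30, adjusted p = 0.0467). Their summed level ran from 37.3 to 51.8 CPM in AB1 IPL tumors and from 58.3 to 109 CPM in AB1 SC tumors, without overlap, and from 23.99 to 56.2 CPM and from 37.9 to 84.7 CPM in AE17. Their part in the Ccr7 values was not tested. With the lane as a covariate only 1 of all genes was called in AE17, so at most 1 of Ccl22 and Il12b stayed called there.

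Of 9 other chemokine and homing genes in the table, 7 could be tested in AB1, where 2 were called lower (10.7% of all genes) and 1 higher (12.3%). Ccr9, the receptor of the gut and thymus chemokine CCL25, fell by 1.504 ± 0.26 on the log2 scale (adjusted p = 0.000553, edgeR). S1pr1, the receptor with which lymphocytes leave lymph nodes, rose by 0.32 ± 0.10 (adjusted p = 0.0195). The median of the 7 was -0.19, beside -0.00 for all genes tested. In AE17, 1 of 8 was called, Ackr3, a scavenging receptor of CXCL12, which fell by 0.91 ± 0.26 (adjusted p = 0.0480). With the lane as a covariate only 1 of all genes was called in AE17, and which gene it was is not given here.

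The lymphotoxin ligands were lower in AB1 IPL tumors. Lta had lowest, median and highest levels of 0.423, 0.878 and 1.25 CPM in AB1 IPL tumors and of 1.55, 2.29 and 4.25 CPM in AB1 SC tumors. Ltb had 5.97, 10.99 and 16.1 CPM in AB1 IPL tumors and 17.8, 25.9 and 35.4 CPM in AB1 SC tumors. For both genes all 8 IPL tumors lay below all 8 SC tumors, and how many of all genes do so was not counted. Lta fell by 1.69 ± 0.26 on the log2 scale, or 3.24-fold (adjusted p = 0.000195, edgeR), and Ltb by 1.27 ± 0.21, or 2.42-fold (adjusted p = 0.000406). Both stayed called with the lane as a covariate. Within lane 3 the values were -1.50 and -1.38 (adjusted p = 0.0884 and 0.0964), where 8 mice stood against 2.

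In AE17 neither ligand was called. Lta had 0.407, 0.917 and 2.22 CPM in IPL tumors and 0.487, 1.51 and 2.25 CPM in SC tumors, with a log2 fold change of -0.45 ± 0.35 (adjusted p = 0.441, edgeR). Ltb had 4.65, 9.14 and 23.98 CPM in IPL tumors and 2.74, 11.6 and 22.04 CPM in SC tumors, with a value of 0.05 ± 0.41 (adjusted p = 0.956). The SC tumors covered almost the whole range of the IPL tumors. IPL replicates 5 and 8 had 23.98 and 16.3 CPM of Ltb and the other 6 at most 10.7 CPM. The value of Ltb was -0.22 without replicate 5 and -0.41 without both (adjusted p = 0.564).

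Ltbr, the receptor that stromal cells and macrophages carry, had the smallest SD relative to its mean of the 10 genes in every group. From lowest over median to highest, its levels were 110.5, 145 and 204 CPM in AB1 IPL tumors and 121, 141 and 148 CPM in AB1 SC tumors, with a log2 fold change of 0.12 ± 0.10 (adjusted p = 0.432, edgeR). They were 82.4, 87.3 and 99.4 CPM in AE17 IPL tumors and 90.7, 104 and 126 CPM in AE17 SC tumors. All 8 AE17 IPL tumors were below the SC median, 5 of them below every SC tumor, and the value was -0.21 ± 0.07 (adjusted p = 0.0650). It was -0.21 with DESeq2 (adjusted p = 0.0294) and -0.23 with limma voom (adjusted p = 0.00191), and leaving out SC replicate 1 or 3 also gave a call (adjusted p = 0.0262 and 0.0384).

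Of 5 other ligands and receptors of the lymphotoxin and TNF family in the table, 3 were called lower in AB1 IPL tumors and none in AE17, beside 10.7% and 3.13% of all genes. Tnf, which lies between Lta and Ltb, fell by 1.15 ± 0.24 on the log2 scale (adjusted p = 0.00258, edgeR), from 12.6 ± 4.26 CPM in SC to 5.80 ± 2.16 CPM in IPL tumors. Tnfrsf14, the receptor of LIGHT, fell by 0.52 ± 0.15 (adjusted p = 0.0162), and Tnfrsf1b, a TNF receptor, by 0.39 ± 0.10 (adjusted p = 0.0110). Of the 9 genes listed for the non-canonical NF-kB pathway 4 were called lower in AB1 and none in AE17, beside the same shares. They were Birc3 (-0.70 ± 0.11, adjusted p = 0.000257) and Birc2 (-0.57 ± 0.16, adjusted p = 0.0155), ubiquitin ligases that hold the pathway back, the subunit Relb (-0.57 ± 0.10, adjusted p = 0.000771), and Nfkb1 (-0.48 ± 0.07, adjusted p = 0.000147), a subunit known from the canonical pathway. The median of the 5 family genes was -0.39 and that of the 9 pathway genes -0.40 in AB1, beside -0.00 for all genes tested, and -0.10 and -0.09 in AE17, beside 0.00.

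Of 6 genes of organizer stroma, follicular dendritic cells and high endothelial venules that could be tested, 4 were called lower in AB1 IPL tumors, where 10.7% of all genes were, and none in AE17. Their median was -0.86 in AB1, beside -0.00 for all genes tested, and -0.02 in AE17, beside 0.00. Vcam1, an adhesion molecule of lymphoid stroma, fell by 1.09 ± 0.14 on the log2 scale (adjusted p = 4.70e-05, edgeR), from 185 ± 36.3 to 88.9 ± 16.7 CPM. Fut7, a fucosyltransferase of venules and leukocytes, fell by 1.59 ± 0.28 (adjusted p = 0.000581). Il7, the T cell survival factor of stroma, fell by 0.96 ± 0.21 (adjusted p = 0.00273), and Icam1 by 0.64 ± 0.15 (adjusted p = 0.00437). Chst4, a sulfotransferase of high endothelial venules, was at a median of 0 counts in AB1 IPL and 1 in AB1 SC tumors. In AE17 its median was 3 counts in IPL tumors, with 23 in replicate 5, and 0 in SC tumors, with at most 1, and it was not tested.

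T cell markers fell with the lymphotoxin ligands. All 7 T cell markers in the table were called lower in AB1 IPL tumors (10.7% of all genes were), by 1.06 ± 0.29 (Cd3e) to 1.71 ± 0.21 (Cd2) on the log2 scale, and their median was -1.29, beside -0.00 for all genes tested. Their summed level ran from 26.4 to 83.5 CPM in AB1 IPL tumors and from 90.3 to 168 CPM in AB1 SC tumors, without overlap. In AE17 none of the 7 was called (5.73% of all genes were), and the sums ran from 42.7 to 136 CPM in IPL and from 18.2 to 160 CPM in SC tumors. The part of the number of T cells in the Lta, Ltb and Ccr7 values was not tested.

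Tnfsf13b, the gene of BAFF, differed little between sites. The lowest, median and highest levels were 16.7, 26.6 and 43.4 CPM in AB1 IPL tumors and 25.9, 33.1 and 47.3 CPM in AB1 SC tumors, with a log2 fold change of -0.39 ± 0.16 (adjusted p = 0.0938, edgeR). Without AB1 IPL replicate 2, the highest IPL tumor, the value was -0.48 (adjusted p = 0.0248). The levels were 6.397, 8.94 and 18.5 CPM in AE17 IPL tumors and 4.14, 7.32 and 11.8 CPM in AE17 SC tumors, with a value of 0.38 ± 0.24 (adjusted p = 0.323). The ranges overlapped in both models.

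Tnfrsf13b, the gene of TACI, was lower in AB1 IPL tumors. Its lowest, median and highest levels were 10.0, 11.6 and 19.2 CPM in AB1 IPL tumors and 12.9, 16.6 and 23.2 CPM in AB1 SC tumors. In AB1, 5 IPL tumors were below every SC tumor. It fell by 0.46 ± 0.14 on the log2 scale, or 1.38-fold (adjusted p = 0.0248, edgeR). Without SC replicate 8 the adjusted p was 0.0547, and with the lane as a covariate the value was -0.28 (adjusted p = 0.585). In AE17 the levels were 11.4, 12.4 and 17.3 CPM in IPL tumors and 11.5, 15.1 and 17.2 CPM in SC tumors, with a value of -0.13 ± 0.11 (adjusted p = 0.483). AE17 IPL replicates 5 and 8 had 15.2 and 17.3 CPM and the other 6 from 11.4 to 13.4 CPM, and without the pair the value was -0.25 (adjusted p = 0.129). No tumor had fewer than 188 counts.

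Of 2 other genes of this system in the table, Tnfsf13, the gene of APRIL, was measured at 2.06 ± 0.30 CPM in AB1 IPL and 1.76 ± 0.36 CPM in AB1 SC tumors (0.20 ± 0.15 on the log2 scale, adjusted p = 0.363, edgeR). In AE17 it was at 1.97 ± 0.32 and 2.03 ± 0.46 CPM (-0.03 ± 0.16, adjusted p = 0.917). Tnfrsf17, the BCMA receptor of plasma cells, had at most 16 counts in any tumor and was not tested.

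B cell markers moved in both directions in AB1. In AB1 IPL tumors 3 of 7 tested were called higher (Cd79a, Cd79b and Ms4a1) and 1 lower (Cd22). In AE17, 2 of 6 tested were called higher in IPL tumors, Cd79a and Pax5. The summed level of the list was 314 and 272 CPM in IPL replicates 5 and 8, from 63.2 to 119 CPM in the other 6, and from 15.5 to 70.8 CPM in SC tumors. Cd79a had 41.8 and 28.3 CPM in the same pair and at most 2.33 CPM in the other 6, while Pax5 had 75.1 and 106 CPM in them and 48.4 to 102 CPM in the others. In AB1 the sums ran from 23.5 to 119.7 CPM and from 31.8 to 48.2 CPM. No B cell marker was at 0 in all mice of a group. Of the other marker lists in AB1, 3 of 6 plasma cell genes, 4 of 4 skeletal muscle genes, 1 of 2 thymus genes, 1 of 2 heart genes, 1 of 4 adipocyte genes and 1 of 2 skin genes were called higher in IPL tumors. Of the same lists, 1 of 6 plasma cell genes, 3 of 5 macrophage genes, 1 of 2 thymus genes and 1 of 2 heart genes were called lower. Of all genes 12.3% were called higher and 10.7% lower. In AE17, 2 of 6 plasma cell, 1 of 2 thymus and 1 of 2 heart genes were called higher and none lower, while 2.60% of all genes were called higher and 3.13% lower. With the lane as a covariate 0 of all genes were called higher in AE17, so these calls and those of Cd79a and Pax5 were lost. The summed plasma cell markers were 1499.7 and 1933 CPM in AE17 IPL replicates 5 and 8 and from 504 to 671 CPM in the other 6. The 1 lung gene and the 1 mesothelial gene that could be tested in each model were not called. Other mesothelial genes were under the filter and were not tested between sites. Of these, Upk3b had 28 to 114 counts in 7 of 8 AE17 IPL tumors and at most 1 in AE17 SC tumors, and Lrrn4 had 23 to 89 in the same 7 and at most 3. AB1 IPL replicate 2, the mouse with the highest Cxcl13, had 590 counts of Upk3b and 449 of Lrrn4, and its summed mesothelial markers were 77.1 CPM against at most 3.28 CPM in the other 7. The part of these tissues in the values of the 10 genes was not tested.

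The difference of the site effects between the models was tested in 1 fit of all 32 mice, in which 20.5% of 15681 genes were called. Of the 10 genes 3 were called. The log2 fold change in AE17 minus that in AB1 was 1.30 ± 0.47 for Ltb (adjusted p = 0.0473, edgeR) and 1.22 ± 0.44 for Lta (adjusted p = 0.0478). Of all genes 8.62% had a called difference above 0. In the fits of each model, both ligands fell in AB1 and changed less in AE17. For Ltbr the difference was -0.35 ± 0.12 (adjusted p = 0.0414), while 11.9% had one below 0. None of the 3 was called without a filter on low counts, with the replicate number as a block, with the lane as a covariate, or without AE17 IPL replicates 5 and 8. The adjusted p ranged from 0.0152 to 0.0964 for Ltb, from 0.0280 to 0.0998 for Lta and from 0.0116 to 0.0769 for Ltbr over 32 fits that each left out 1 mouse. Differences for the other 7 genes were not called, with Tnfsf13b closest to the threshold (0.76 ± 0.29, adjusted p = 0.0659). Tnfsf13b was called with DESeq2 (adjusted p = 0.0481) and in 5 of the 32 fits that left out 1 mouse (adjusted p from 0.0288 to 0.139 over the 32), those without AB1 IPL replicate 2, AB1 SC replicate 3, AE17 IPL replicate 4 and AE17 SC replicates 1 and 3.

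Between the models most genes differed at either site, with 58.3% of all genes called in SC tumors and 63.4% in IPL tumors. Of the 10 genes 6 were called in SC tumors, and 6 in IPL tumors if Ccl19 is counted. In SC tumors 5 were lower in AE17 (28.6% of all genes were) and 1 was higher (29.7%). In IPL tumors 3 were lower (31.6%) and 3 were higher (31.8%), which were Ccl21a, Cxcr5 and Ccl19. Ccl19 passed the filter only through AE17, where it was higher, so its call is not taken as a result. In SC tumors the 10 genes were called at about the share of all genes. The count in IPL tumors is not read in this way, since it holds Ccl19.

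Tnfsf13b and Cxcl13 were lower in AE17 at both sites. Tnfsf13b fell by 2.23 ± 0.22 on the log2 scale in SC tumors (adjusted p = 1.83e-10, edgeR) and by 1.47 ± 0.21 in IPL tumors (adjusted p = 3.78e-07). All 8 AE17 SC tumors were below all 8 AB1 SC tumors, and 7 AE17 IPL tumors were below all AB1 IPL tumors. The share of all genes with such a separation was not counted. Cxcl13 fell by 2.76 ± 0.64 in SC tumors (adjusted p = 0.000458) and by 1.99 ± 0.61 in IPL tumors (adjusted p = 0.00535), and AE17 IPL replicates 5 and 8 reached the AB1 range. With the lane as a covariate the IPL value of Cxcl13 was -2.89 (adjusted p = 0.0942). Ltbr was lower in AE17 by 0.39 ± 0.09 in SC (adjusted p = 0.000238) and by 0.74 ± 0.09 in IPL tumors (adjusted p = 8.15e-09), without overlap in the latter, and with the lane as a covariate its SC value was -0.34 (adjusted p = 0.102).

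Ccl21a was higher in AE17, by 5.11 ± 0.93 on the log2 scale in SC tumors (adjusted p = 2.54e-05, edgeR) and by 3.16 ± 0.75 in IPL tumors (adjusted p = 0.000529). With the lane as a covariate the IPL value was 4.26 (adjusted p = 0.113). Of the 3 lymphatic markers that passed the filter in both models, Flt4, Lyve1 and Reln, all 3 were called higher in AE17 SC tumors (29.7% of all genes were) and 2 in AE17 IPL tumors (31.8%). Ccl19 passed the filter of the joint fit only through AE17, so no fold change or p value is given. Its median was 19 counts in AE17 IPL and 5.5 in AB1 IPL tumors, with overlapping ranges. Cxcr5 was called higher in AE17 IPL tumors (1.04 ± 0.46, adjusted p = 0.0473), but without AE17 IPL replicates 5 and 8 the value was -0.39 (adjusted p = 0.287), and it was 0.40 without replicate 5 alone (adjusted p = 0.398). The call of Cxcr5 was lost in 25 of 32 fits that each left out 1 mouse, any of the 16 SC mice among them. Ltb and Lta were lower in AE17 SC tumors, by 1.25 ± 0.33 (adjusted p = 0.00188) and 0.79 ± 0.30 (adjusted p = 0.0252), and were not called in IPL tumors (0.05 ± 0.33, adjusted p = 0.905, and 0.43 ± 0.32, adjusted p = 0.250). With the lane as a covariate the SC values of Ltb and Lta were -1.40 (adjusted p = 0.0798) and -0.75 (adjusted p = 0.346), and Lta also lost its SC call without AB1 SC replicate 8 or AE17 SC replicate 4. Ccr7 and Tnfrsf13b were not called at either site.

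Within groups, the levels of several genes followed those of marker genes from mouse to mouse. Each of the 10 genes was compared with the mean log2 CPM of B cell, T cell and lymphatic endothelium markers over 32 mice, after the mean of each group was removed, by 100000 permutations of the mice within groups (two-sided), adjusted over the 30 relations. Ltb followed the T cell markers most closely (Pearson r = 0.94, Spearman rho = 0.93, adjusted permutation p = 6e-05 and 7.5e-05, from 1e-05 for each, the smallest p that 100000 permutations can give). Without the 2 mice farthest from the median of the markers r was 0.91. Lta (r = 0.77, rho = 0.76) and Ccr7 (r = 0.69, rho = 0.69) followed them less closely, with r = 0.71 and 0.66 without the same 2 mice.

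Cxcr5 followed the B cell markers (r = 0.93, rho = 0.87, adjusted permutation p = 6e-05 and 0.00012), and so did Cxcl13 (r = 0.76, rho = 0.74, adjusted permutation p = 0.00015 for each). The 2 farthest mice were AE17 IPL replicates 5 and 8, and r was 0.86 for Cxcr5 and 0.64 for Cxcl13 without them. Ccl21a followed the lymphatic endothelium markers (r = 0.86, rho = 0.74, adjusted permutation p = 6e-05 and 7.5e-05), with r = 0.73 without AE17 IPL replicate 8 and AB1 IPL replicate 8. It did not follow the B cell markers (r = -0.19, rho = 0.04, adjusted permutation p = 0.506 and 0.817) or the T cell markers (r = 0.18, rho = 0.19, adjusted permutation p = 0.423 and 0.435). Ltbr followed none of the 3 lists (r from -0.24 to -0.12, adjusted permutation p from 0.347 to 0.608), but without AB1 IPL replicate 4 its r with T cell markers was -0.43 (adjusted permutation p = 0.0463). In all, 17 of the 30 relations had an adjusted permutation p under 0.05 by both measures. Among them were Ccl19, Tnfsf13b and Tnfrsf13b with B cell markers (r = 0.50, 0.43 and 0.67) and with T cell markers (r = 0.62, 0.58 and 0.63). The relation of Tnfsf13b with B cell markers lost its call in 11 of 32 fits that each left out 1 mouse (adjusted permutation p up to 0.119), AE17 IPL replicate 5 and AB1 IPL replicate 2 among them, and those of Ccl19 (r = 0.38, adjusted permutation p = 0.0681) and Ccr7 (r = 0.41, adjusted permutation p = 0.0645) with B cell markers lost it without AE17 IPL replicate 5. With Pax5 taken off the B cell list, Tnfsf13b had r = 0.41 with the B cell markers (adjusted permutation p = 0.0581). Centred within group and lane, all 17 stayed under 0.05 by Pearson's r, and Ccl19 with the lymphatic markers joined them (r = 0.37). All points share the scaling of their library.

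**Figure D4:**
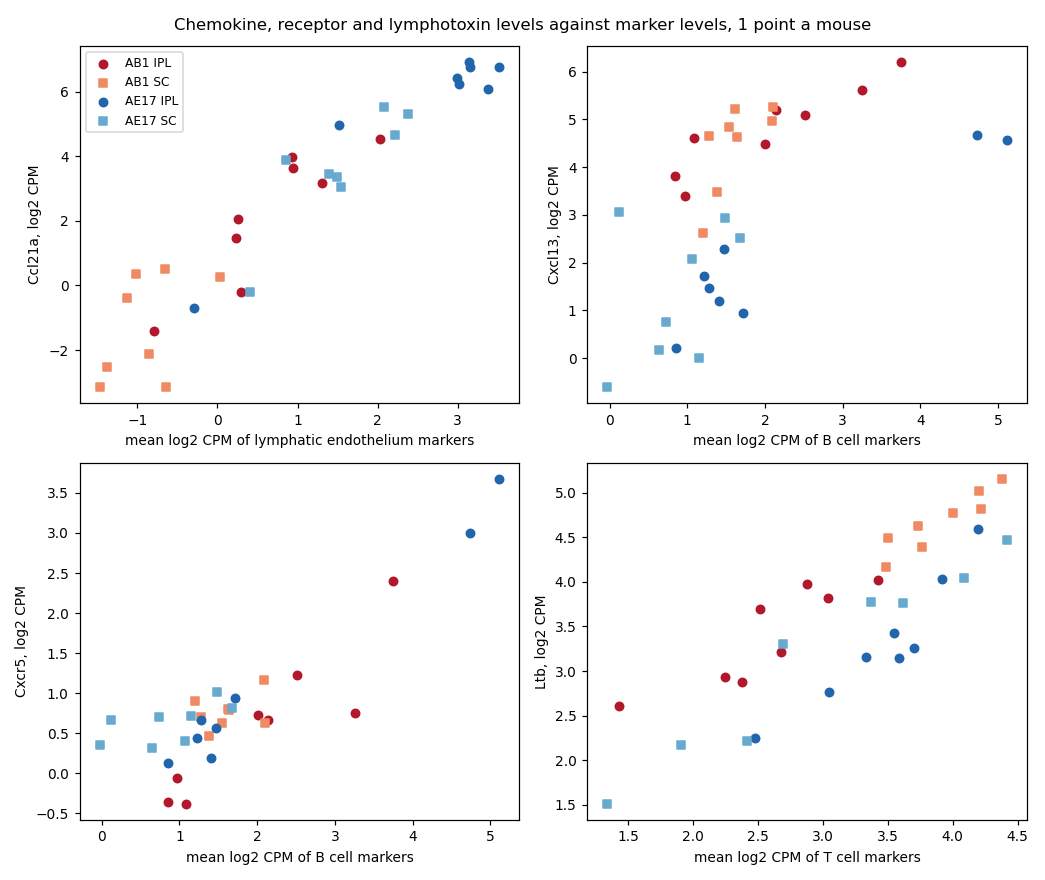
Level in log2 CPM of Ccl21a, Cxcl13, Cxcr5 and Ltb (y axes) against the mean log2 CPM of lymphatic endothelium, B cell or T cell markers (x axes), with 1 point per mouse, colored by group (circles IPL, squares SC). Ccl21a rises with the lymphatic markers in all groups together, and AE17 IPL replicates 5 and 8 are the 2 points at the far right of both B cell panels.

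The genes whose levels were most like those of the 10 were looked for among 15681 genes, as the highest Pearson r over 32 mice after the mean of each group was removed. Ltb was most like Lat (r = 0.97), Cd2 (r = 0.96) and Gimap3 (r = 0.95), and Cxcr5 was most like Cd79b and Pou2af1 (r = 0.90 each). Ccl21a was most like its copies (r = 0.99 each) and Prox1 (r = 0.90), and Ccl19 was most like Ccl19-ps3 (r = 0.96), Gm12407 (r = 0.89) and Serping1 (r = 0.87). Cxcl13 was most like Scn2b (r = 0.83), Gm14085 (r = 0.81) and Pou2af1 (r = 0.81). Ccr7 was most like Tspyl3, Bcl2l14 and 9130019O22Rik (r from 0.86 to 0.88), and Lta like Gimap1, Tbc1d8 and Gm12407 (r from 0.83 to 0.84). Ltbr was most like Gorasp2, Emc10 and Ddost (r from 0.86 to 0.90), Tnfsf13b like Scimp, Tmbim4 and Arid5a (r from 0.81 to 0.82), and Tnfrsf13b like Pycard, Cnp and Rhoh (r from 0.80 to 0.81). Rank correlations of the 30 pairs were between 0.70 and 0.97.

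Among the 10 genes themselves, Lta and Ltb (r = 0.80), Ccr7 and Ltb (r = 0.78), and Ccr7 and Lta (r = 0.74) were most alike over the 32 mice, followed by Ccl19 and Ltb (r = 0.71), Ltb and Tnfrsf13b (r = 0.71), and Cxcl13 and Cxcr5 (r = 0.70). Ccl21a was not close to its receptor Ccr7 (r = 0.03), and Tnfsf13b and Tnfrsf13b had r = 0.61. Ltbr was not close to either ligand (r = -0.15 with Lta and -0.18 with Ltb). These values describe the 32 mice and were not tested.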

How the data were processed

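RNA from 32 whole tumors, 8 per model and site, was sequenced as 50-base single-end reads. The authors demultiplexed with bcl2fastq 1.8.4, aligned with HISAT2 2.0.4 and deposited raw counts per gene. The genome name in the methods matched no release used here, and the gene identifiers were matched to GENCODE M21 (GRCm38), 39495 of 39676 without their version. From the deposited counts, edgeR 4.0.16 in R 4.3.3 was run with TMM scaling, its default filter on low counts and robust quasi-likelihood tests, per model for the sites and over 32 mice for the interaction and the models. P values were adjusted over all genes tested. DESeq2 1.42.0, limma 3.58.1 with voom and the other settings named in the closing section were alternatives. The tests were tested on simulated data with known changes. Log2 CPM used a prior count of 2. A gene under the filter had an exact permutation test.

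The 10 genes and the gene and marker lists were chosen with earlier results of these data known. The text names up to 4 called genes of each pathway list per site comparison, those of smallest p. Other genes were named for a value of the 10, after their values were seen. Genes of the lists that are missing from the table were not analysed here. No 2 libraries of a group were alike within sampling noise (112 pairs). Total counts ranged from 15432258 to 20649645, so a gene at 1 CPM rests on few reads. Some genes of the lists that the naming rule would name are not reported here.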

Additional observations from a re-analysis of the deposited data

Results flagged for a closer look

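Single mice were tested on log2 CPM, with 1 test per gene and group. Among the 40 tests, 3 mice lay farther from their group than Dixon's 95% limit for 8 values allows. Chance gives about 1 in 20, or 2 of the 40. Ccl21a was lowest in AE17 IPL replicate 8, at 0.501 CPM, while the next mouse had 31.3 CPM. Ccl21a was also lowest in AE17 SC replicate 6, at 0.762 CPM, while the next mouse had 8.08 CPM. Tnfrsf13b was highest in AB1 IPL replicate 2, at 19.2 CPM, while the next mouse had 13.2 CPM.

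The difference between sites was called different between the models for 3 of the 10 genes by edgeR's interaction test, while 20.5% of all genes were called. The log2 difference of AE17 minus AB1 was 1.22 for Lta (adjusted p = 0.0478), 1.30 for Ltb (adjusted p = 0.0473) and -0.35 for Ltbr (adjusted p = 0.0414). None of the 3 was called with no filter, with the replicate block, with the lane as a covariate or without AE17 IPL replicates 5 and 8, and with 1 mouse left out Lta lost its call in 19, Ltb in 20 and Ltbr in 15 of 32 fits.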

How the results depend on the processing

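The lane limits these results most, since it nearly follows the site. With the lane as a covariate, called genes of the 10 numbered 2 in AB1 (386 of all genes), 0 in AE17 (1), 0 for the interaction (117), 3 between models in SC (5268) and 2 in IPL (5008). Within lane 3 AB1 had 0 (169 genes, Ltbr -0.017), and within lane 1 AE17 had 14 genes. The lane also turned Ccr7 in the interaction to -0.019 and Tnfrsf13b between models in IPL to -0.18. Requiring 10 counts in every mouse left 3 in AB1, 3 in SC and 3 in IPL, since fewer genes were tested. In AE17 DESeq2 called 1 of the 10 (1661 genes) and limma voom 2 (3959), no filter gave 550 genes, and 1 fit of 32 mice 1324. Voom gave Cxcr5 -0.40 in AB1 and Ltb -0.19 in AE17, and total counts gave Ltb -0.00048 between models in IPL. Without a filter the interaction called 0.

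Alternatives chosen after seeing the data left out pairs of mice or took Pax5 off the B cell markers. Without AE17 IPL replicates 5 and 8, 2 were called in AE17 and 0 for the interaction. Values turned to -0.51 for Cxcl13, -0.13 for Cxcr5, -0.0011 for Ccl19 and -0.41 for Ltb in AE17, to -0.87 for Cxcl13, -0.27 for Cxcr5 and -0.26 for Ccr7 in the interaction, and to -0.39 for Cxcr5, -0.40 for Ltb and -0.0064 for Tnfrsf13b between models in IPL. Without AB1 IPL replicates 2 and 3, Cxcl13 was -0.11 and Cxcr5 -0.39 in AB1. Without Pax5 the relation of Tnfsf13b with B cell markers lost its call (r = 0.41, adjusted permutation p = 0.0581).

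With the replicate number as a block, 4 were called in AB1 (2263 genes, Tnfrsf13b lost), 0 in AE17 (661) and 0 for the interaction, and Cxcr5 was -0.15 in AB1. The numbers were not shown to pair mice: same-numbered mice had a mean r of -0.119 in AB1 and 0.0722 in AE17, over 0.1 in 0 and 5 of 8 pairs, and 0 and 3 of 8 IPL mice were closest to their own number.

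With each mouse left out in turn, called genes ranged from 4 to 6 in AB1 (2877 to 3652 of all genes), 0 to 1 in AE17 (316 to 2066) and 0 to 4 for the interaction (2722 to 3664). Between the models they ranged from 6 to 7 in SC (8862 to 9649) and, with Ccl19 counted, from 5 to 6 in IPL (9686 to 10118). Relations ranged from 14 to 18. Ranges that crossed 0 were -0.32 to 0.18 for Ccl19 and -0.32 to 0.25 for Cxcr5 in AB1, -0.22 to 0.27 for Ltb in AE17, -0.12 to 0.30 for Ccr7 in the interaction and -0.20 to 0.17 for Ltb between models in IPL. For r they were -0.289 to 0.141 for Ccl21a with B cell markers and, with lymphatic markers, -0.340 to 0.0327 for Cxcl13, -0.427 to 0.00827 for Cxcr5, -0.0432 to 0.178 for Ccr7, -0.00301 to 0.269 for Ltb, -0.278 to 0.0384 for Ltbr, -0.237 to 0.0116 for Tnfsf13b and -0.206 to 0.143 for Tnfrsf13b. Of the other alternatives for single genes and relations, 533 kept direction and side of the threshold, 13 became called, 36 lost the call and 19 turned. The causes were not tested.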

Other observations

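Ackr4, a receptor that removes CCL19 and CCL21, was named after its values were seen. Its median was 10 counts in AB1 IPL, 0.5 in AB1 SC, 56 in AE17 IPL and 68.5 in AE17 SC tumors. AB1 SC tumors had from 0 to 3 counts and AB1 IPL tumors from 0 to 33, against 37 to 79 in AE17 IPL and 48 to 136 in AE17 SC tumors, without overlap between the models at either site. The gene passed the filter only through AE17, so no fold change between the models is given. AB1 counts were too low for a test of the sites in AB1 alone, and in AE17 the site difference was -0.54 ± 0.23 (adjusted p = 0.150).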
